A study of Mus musculus with 4 samples.

Results

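The genes described here encode the subunits of potassium, sodium, calcium and pacemaker channels, which set the electrical activity of heart muscle cells. They were taken as every gene whose symbol begins with Kcn, with Scn or Hcn and a digit, or with Cacn, after the RefSeq accession of each array probe had been turned into a symbol. The rule covered 139 genes with 193 probes. A gene was tested where a probe was well above background, as flagged by the scanner software, on at least 2 of the 4 arrays, which left 59 channel genes (71 probes) among 12542 genes tested in all. The RNA came from adult heart muscle cells of 10-week-old male mice made by crossing αMHC promoter-driven CRE mice with tetO-Yamanaka's OSKM factor mice. In these animals doxycycline given into the peritoneum switches on Pou5f1, Sox2, Klf4 and Myc in cells that use the αMHC promoter, which is active in heart muscle. Control mice received PBS and treated mice received doxycycline, both for 2 days. There were 2 arrays per group, each 1-colour and labelled with Cy3. The controls carried the same transgenes, and no array came from mice given doxycycline without the factors, so drug and factors cannot be told apart. The labels do not say whether each array stands for an animal of its own. The p-values therefore reflect only how far these samples spread, which may be technical.

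An action potential of a mouse heart muscle cell begins when voltage-gated sodium channels open, is followed by calcium entry through L-type channels, and is ended by several potassium currents. A channel is built from pore-forming subunits and from accessory subunits that set its gating and its place in the membrane. Inward rectifier potassium channels hold the resting potential, and pacemaker (HCN) channels carry a depolarising current that is best known from the sinus node.

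Values below are log2 levels, the log2 processed signal less that of the array's 75th percentile. A difference is the doxycycline mean less the control mean, given with the limma standard error (SE, n = 2 per group). Levels are given for array 1 and then array 2 of each group. A level can be compared between arrays for the same probe but not between genes. Control array 1 had the lowest 75th percentile (112, against 171 on control array 2 and 248 and 193 on doxycycline arrays 1 and 2), and its repeated spots varied most, by a median of 10.99% against 4.02% to 4.81% on the others, so differences are also given without it. A value without control array 1 rests on 1 control array, which is assumed to vary like the doxycycline arrays. All 10 heart muscle markers were tested, with a log2 summed level of 11.9 and 12.1 in control against 11.5 and 11.8 after doxycycline. A few bright genes carry that sum, while 8 of the 10 were dimmer on control array 1, and the median of control array 1 minus control array 2 was -1.17. The preparations also held RNA of other cells, and control array 1 read highest for the endothelial (8.36 against 6.57 to 7.09), fibroblast (7.79 against 6.10 to 6.43) and red cell lists (8.29 against 5.49 to 6.03). Of the 10 fibroblast markers, 6 were below both controls on both doxycycline arrays (20.8% of all genes tested). The median difference between groups was -2.31 over these 10 (-1.39 without control array 1). It was -1.08 over the 8 macrophage markers tested (-0.48 without control array 1) and -1.58 over the 4 red cell markers tested (-0.46). Over the 6 neutrophil markers tested it was 2.79 (3.31 without control array 1). Of these 6, 4 means were higher and 2 lower after doxycycline. Their log2 summed level overlapped between groups, at 6.19 and 5.29 in control against 6.54 and 5.93 after doxycycline. The part of these cells in the differences of the channel genes was not tested. In such bulk samples fewer cells of a type and less RNA per cell cannot be told apart.

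**Figure D1:**
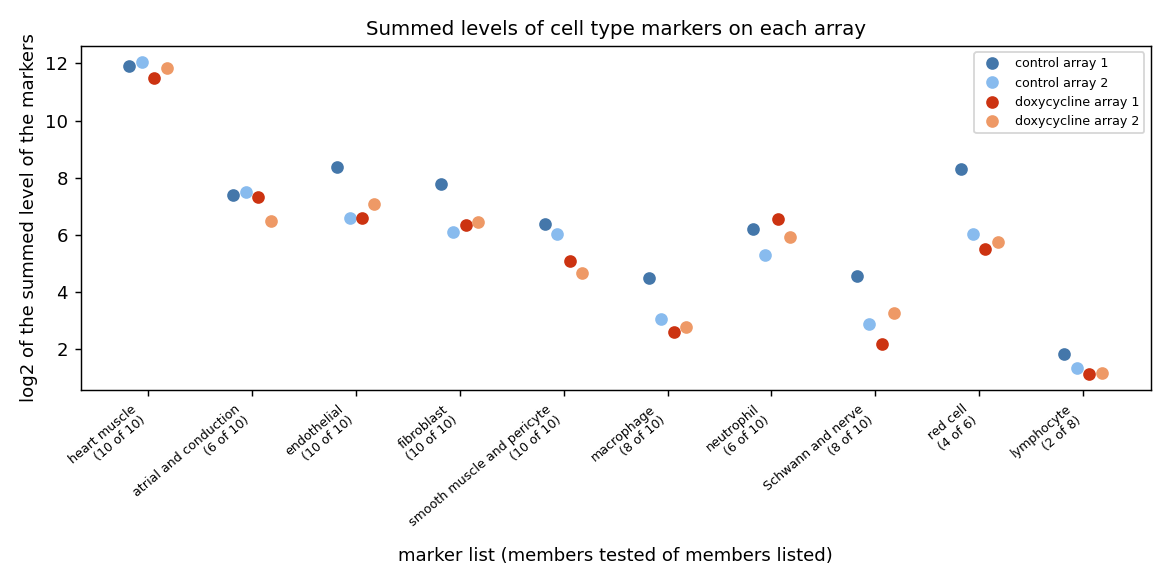
Log2 of the summed level of each marker list on each array, with 1 point per array and the number of listed genes that were tested in brackets. Heart muscle markers lie between 11.5 and 12.1 on every array, while control array 1 lies above the others for endothelial, fibroblast, macrophage, Schwann cell and red cell markers.

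None of the 59 channel genes passed an adjusted p of 0.05 in the limma fit, as none did among all genes tested (0% called). The smallest adjusted p of a channel gene was 0.448, for Kcnj8. At an unadjusted p under 0.05 there were 8 channel genes (13.6%), against 7.06% of all genes tested. All 8 had a mean level under 0, and counts by brightness are given further below. Of these, 6 were lower after doxycycline (10.2%, against 3.89% of all genes), namely Kcnj8, Kcna6, Scn10a, Kcna1, Cacna1g and Cacna2d2, and 2 were higher (3.39%, against 3.17%), namely Kcne4 and Kcnk1. Kcne4 was tested only through the doxycycline group, where it was high, so it had to differ and supports neither count of higher genes. Both doxycycline arrays read below both control arrays for 16 channel genes (27.1%, against 20.8% of all genes tested) and above both for 5 (8.47%, against 14.5%), so the groups did not overlap for 21 (35.6%, against 35.3%). The mean was lower after doxycycline for 41 of the 59 (69.5%, against 54.8% of all genes). The median difference over the channel genes was -0.27, and over all genes it was -0.061. Without control array 1 the medians were -0.26 and -0.11, and 42 of the 59 means were lower (71.2%, against 58.4%). Scaling each array to its median instead raised every difference by 0.35, which left 28 of the 59 means lower and turned the medians of 6 families (calcium accessory, calcium- or sodium-activated, inward rectifier, pacemaker, sodium pore and tandem-pore) above 0, while the median over the channel genes stayed 0.21 below that over all genes. Directions below are those of the 75th percentile scaling. With normexp background correction, differences came nearer to 0 for Kcna1 (-1.02), Kcna6 (-0.99), Kcnj8 (-1.33), Scn10a (-0.67), Cacna2d2 (-0.53) and Kcne3 (-0.57). Most differences were small, with 47 of the 59 within 1 log2 unit of 0.

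**Figure D2:**
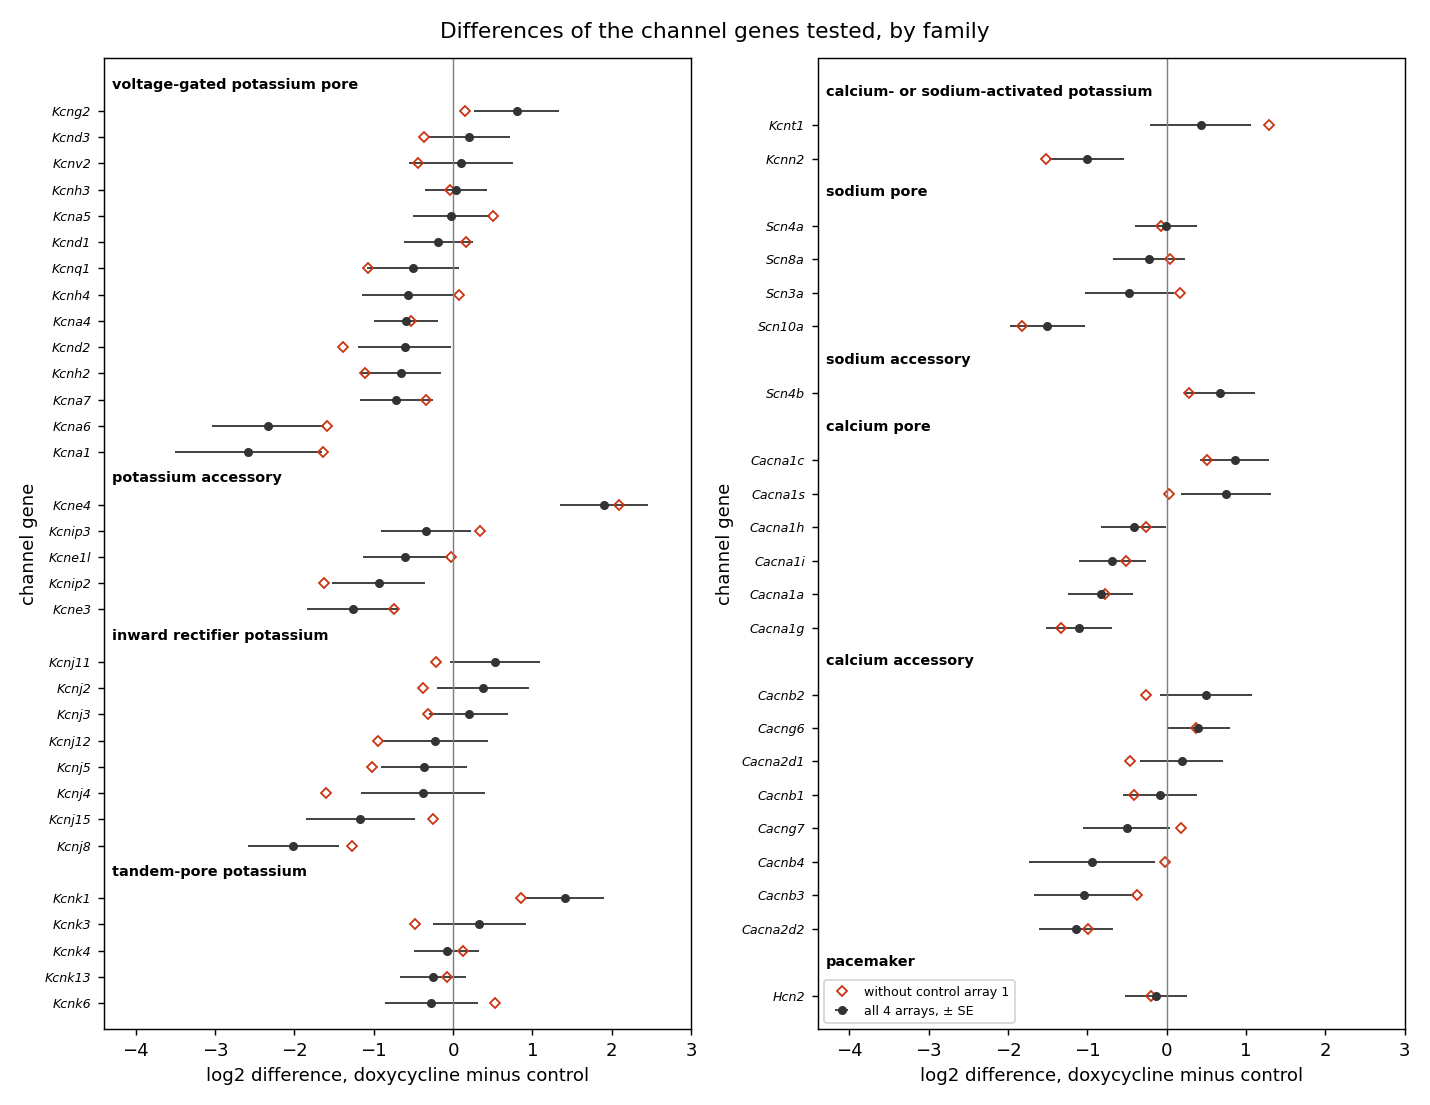
Log2 difference, doxycycline minus control, of 54 of the 59 channel genes tested, grouped by family, with black points and bars for all 4 arrays (± SE of the limma fit, n = 2 per group) and open red diamonds for the value without control array 1. Kcna1, Kcna6 and Kcnj8 lie below -2 with all 4 arrays, Kcne4 lies highest (its controls were not well above background), and the red diamonds lie on the other side of 0 from the black points for 18 of the genes shown.

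Among the voltage-gated potassium pore subunits, 16 of 40 genes with a probe were tested, with a median difference of -0.54, and 12 of the 16 means were lower after doxycycline. Among these 16, both doxycycline arrays read below both control arrays for 5 (20.8% of all genes tested) and above both for none (14.5%). Over the members of the family well above background on all 4 arrays, which leave out Kcna1 and Kcna6, the median was -0.18. The lowest of the family were Kcna1 and Kcna6, which encode delayed rectifier subunits best known from axons. Kcna1 read -0.55 and -2.42 in the control group against -5.28 and -2.84 in the doxycycline group. Kcna6 read -0.76 and -2.23 in the control group against -4.61 and -3.04 in the doxycycline group. For both genes control array 1 was highest and doxycycline array 1 lowest, where neither probe was well above background, while control array 2 and doxycycline array 2 lay closer together. The difference was -2.58 ± 0.93 for Kcna1 (adjusted p = 0.619) and -2.33 ± 0.71 for Kcna6 (adjusted p = 0.498), and without control array 1 it was -1.65 and -1.59. When doxycycline array 2 was left out, they were the 2 channel genes with an adjusted p under 0.05 in limma (3.39%, against 1.36% of all genes tested). The treated side was then doxycycline array 1 alone, where neither was well above background, and the spread came from the control arrays alone, so no size is given. The limma fit then had 1013 prior degrees of freedom, against 4.69 with all arrays, so that nearly the same spread was taken for every gene.

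Schwann cell and nerve markers were lower along with Kcna1 and Kcna6. Of the 10 markers listed, 8 were tested and all 8 means were lower after doxycycline, with a median difference of -1.12 (-0.49 without control array 1). Their log2 summed level was 4.55 and 2.87 in control against 2.18 and 3.27 after doxycycline. The part of these cells in the differences of Kcna1 and Kcna6 was not tested.

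Kcna1 and Kcna6 are neighbours on chromosome 6, and the next gene beyond Kcna1 is Kcna5, which encodes a rapidly activating delayed rectifier of the mouse heart. Kcna5 read 0.85 and -0.20 in the control group against 0.28 and 0.33 in the doxycycline group. The groups overlapped, and the difference was -0.021 ± 0.48, while a second, dimmer Kcna5 probe differed by 0.77, so that the probes disagreed in sign. The neighbouring genes therefore did not read alike on these arrays.

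Of the subunits behind the transient outward currents of the mouse ventricle, Kcnd2 and Kcnd3 differed less between groups than between the control arrays, and Kcna4 differed more. Kcnd2, a pore subunit of the fast transient outward current, read 0.15 and 1.71 in the control group against 0.15 and 0.49 in the doxycycline group. Both doxycycline arrays lay near or just above control array 1 and below control array 2, and the difference was -0.61 ± 0.59 (adjusted p = 0.925) with all arrays and -1.39 without control array 1. Its partner Kcnd3 read -0.11 and 1.04 in the control group against 0.48 and 0.86 in the doxycycline group, and the difference was 0.21 ± 0.51, or -0.37 without control array 1. Kcna4, a pore subunit of the slow transient outward current, had close replicates. It read 2.72 and 2.60 in the control group against 2.23 and 1.90 in the doxycycline group, and both doxycycline arrays lay below both control arrays (-0.59 ± 0.40, adjusted p = 0.885).

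The delayed rectifier genes Kcnq1, Kcnh2 and Kcna7 had means that were lower after doxycycline by less than 2 standard errors. Kcnq1, the pore of the slow delayed rectifier, read 1.80 and 2.93 in the control group against 2.41 and 1.31 in the doxycycline group, a difference of -0.51 ± 0.58 in which doxycycline array 2 was lowest and control array 2 highest. Kcnh2, the pore of the rapid delayed rectifier, read 1.07 and 1.99 in the control group against 1.21 and 0.54 in the doxycycline group, with doxycycline array 1 between the control arrays (-0.66 ± 0.50). Without control array 1, Kcnq1 stood at -1.07 and Kcnh2 at -1.11. Kcna7, a voltage-gated channel of muscle, read 3.19 and 2.44 in the control group against 1.85 and 2.35 in the doxycycline group (-0.72 ± 0.46), and both doxycycline arrays lay below both control arrays. Without control array 1 the difference of Kcna7 was -0.34. A second Kcna7 probe differed by -0.40 with overlapping groups, at 2.12 and 0.93 in the control group against 0.94 and 1.30 in the doxycycline group.

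Some voltage-gated subunits conduct only when joined to others. Kcng2, such a silent subunit, read 0.68 and 1.98 in the control group against 2.31 and 1.96 in the doxycycline group. It was the highest of the family, at 0.80 ± 0.54 (adjusted p = 0.882), but control array 2 lay between the doxycycline arrays and the difference was 0.15 without control array 1. Kcnv2, another silent subunit, read -2.24 and -1.16 in the control group against -2.40 and -0.80 in the doxycycline group, with overlapping groups (0.099 ± 0.66). Kcnh4, Kcnd1 and Kcnh3 had overlapping groups and differences from -0.57 to 0.032.

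**Figure D3:**
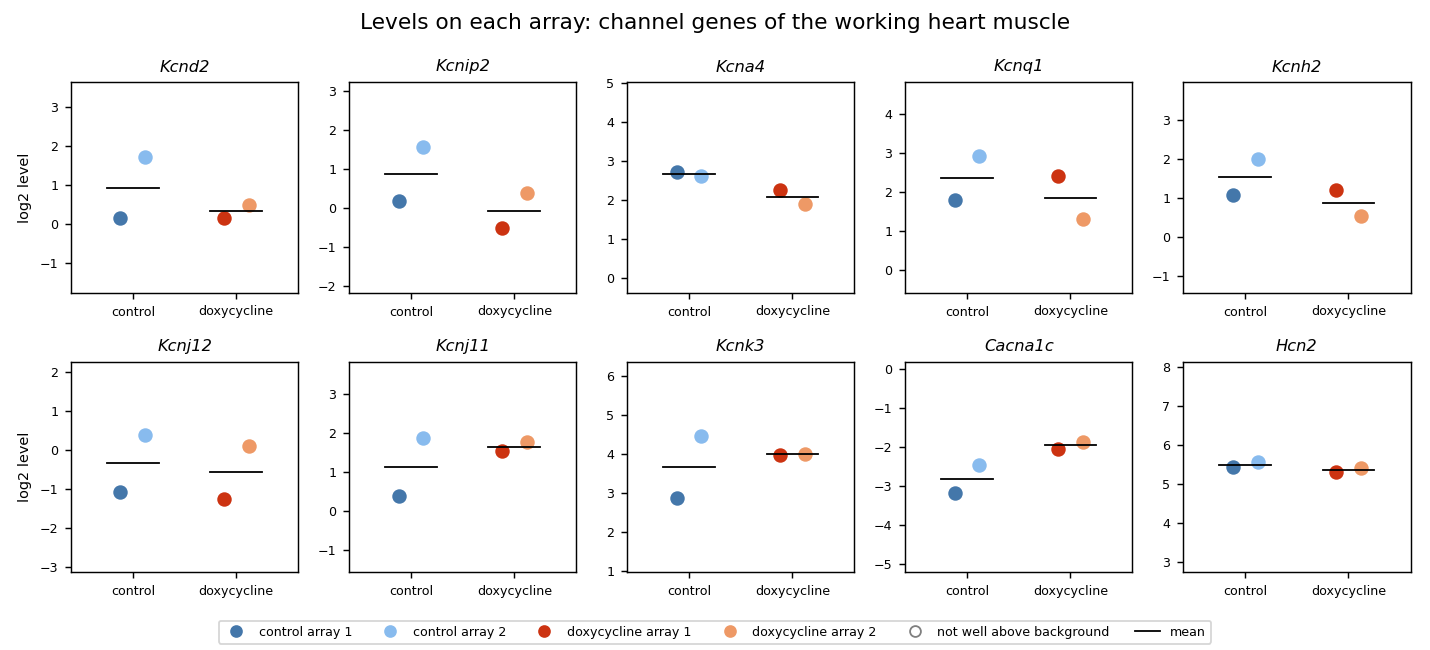
Log2 level of 10 channel genes of the working heart muscle on each array, with 1 point per array and the black line at the mean of each group; each panel spans the same number of log2 units. For Kcnd2, Kcnip2, Kcnq1, Kcnj12, Kcnj11 and Kcnk3 the control arrays lie more than 1 log2 unit apart, whereas the 4 arrays span 0.24 for Hcn2.

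Among the potassium accessory subunits, 5 of 12 genes were tested, 4 means were lower after doxycycline, and the median difference was -0.60 (-0.032 without control array 1). The exception was Kcne4, a single-span subunit that inhibits several voltage-gated potassium channels. Neither control array had it well above background, whereas both doxycycline arrays did, with processed signals of 4.65 and 5.48 in the control group against 55.3 and 16.1 in the doxycycline group. Its level was -4.59 and -4.96 in the control group against -2.17 and -3.58 in the doxycycline group. Doxycycline array 1 stood out, and both doxycycline arrays lay above both control arrays. The controls give only an upper limit per array, the lowest signal well above background or the probe's own signal where that was higher. Against that limit the doxycycline mean of -2.87 was 1.96-fold higher, a bound that takes no account of the spread between arrays. The bound rested mainly on doxycycline array 1, as doxycycline array 2 (-3.58) lay close to the limit of control array 1 (-3.69). Kcne4 was tested only because both doxycycline arrays passed, so a higher value there was set by the selection. The limma values (control mean of -4.78, adjusted p = 0.472) are therefore no test of a rise. With normexp background correction the fitted difference turned to -0.086, so a minimum rise was not shown.

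Kcnip2, the calcium-binding partner that the fast transient outward current of the heart needs, read 0.19 and 1.56 in the control group against -0.51 and 0.37 in the doxycycline group. Control array 1 lay between the doxycycline arrays, and control array 2 was more than 1 log2 unit above all others. Its difference was -0.94 ± 0.59 (adjusted p = 0.876), or -1.62 without control array 1. Kcnip2 and Kcnd2, whose products assemble, both read highest on control array 2 and lower on the other 3 arrays. Among others, Kcnd3, Kcnq1, Kcnh2, Kcnj5, Kcnk3 and Cacna2d1 also read highest there, so this was not particular to the pair. Kcne3, another single-span subunit, read -2.73 and -3.77 in the control group against -5.07 and -3.96 in the doxycycline group, and both doxycycline arrays lay below both control arrays (-1.26 ± 0.57). All 4 of its signals were dim, at 17 and 12.5 in the control group against 7.38 and 12.4 in the doxycycline group. Kcne1l and Kcnip3 had overlapping groups and differed by -0.60 and -0.35. Kcne1, the partner of Kcnq1 in the slow delayed rectifier, was well above background on control array 1 alone and was not tested.

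The inward rectifiers held the channel gene with the smallest p. Of 15 genes 8 were tested, with a median difference of -0.30, and 5 means were lower after doxycycline. Kcnj8 encodes a pore subunit of ATP-sensitive potassium channels that is best known from vascular smooth muscle and pericytes. It read 0.92 and -0.55 in the control group against -2.07 and -1.58 in the doxycycline group, from processed signals of 212 and 117 in the control group against 59.1 and 64.3 in the doxycycline group. The doxycycline arrays both lay below both control arrays, before and after scaling, and they were close to each other. The difference was -2.01 ± 0.57 (4.03-fold lower, adjusted p = 0.448), and it was -1.28 without control array 1.

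Kcnj8 lies beside Abcc9 on chromosome 6, which encodes a sulphonylurea receptor that joins it in the channel. Abcc9 read 2.73 and 2.52 in the control group against 1.45 and 1.72 in the doxycycline group, and both doxycycline arrays lay below both control arrays (-1.04 ± 0.40, adjusted p = 0.661; -0.94 without control array 1). All 10 smooth muscle and pericyte markers were tested, with 8 means lower and a median difference of -0.55 (0.14 without control array 1). Both doxycycline arrays read below both controls for 4 of these 10 markers (20.8% of all genes tested). Their log2 summed level was 6.38 and 6.03 in control against 5.06 and 4.67 after doxycycline. Without Acta2, a smooth muscle actin left out after seeing the data, it was 5.75 and 4.45 against 4.55 and 4.42, and the groups overlapped. The median difference of the fibroblast markers, given above, was further below 0. Their log2 summed level overlapped between groups, at 7.79 and 6.10 in control against 6.33 and 6.43 after doxycycline. The part of these cells in the difference of Kcnj8 was not tested. Kcnj11, the pore of the heart muscle ATP-sensitive channel, read 0.39 and 1.88 in the control group against 1.54 and 1.77 in the doxycycline group. Its neighbour Abcc8 read 2.47 and 3.62 in the control group against 2.71 and 3.20 in the doxycycline group. Their differences were 0.52 ± 0.57 and -0.092 ± 0.52, with overlapping groups, and without control array 1 they were -0.22 and -0.67.

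The genes of the resting and acetylcholine-gated currents overlapped between groups. Kcnj2, the main subunit of the strong inward rectifier, read -4.34 and -2.82 in the control group against -3.05 and -3.36 in the doxycycline group, and was not well above background on control array 1. Its difference was 0.38 ± 0.58. Kcnj12 and Kcnj4, which also form strong inward rectifiers, differed by -0.23 ± 0.67 and -0.38 ± 0.78, and the control arrays of Kcnj4 were the farthest apart of any channel gene tested, at -3.97 and -1.54 in the control group against -2.94 and -3.32 in the doxycycline group, although control array 1 was not well above background. Kcnj3 and Kcnj5, which together form the channel opened by acetylcholine, differed by 0.20 ± 0.50 and -0.36 ± 0.54. Kcnj5 read 1.90 and 3.23 in the control group against 2.03 and 2.37 in the doxycycline group, so that both doxycycline arrays lay between the control arrays. The remaining gene, Kcnj15, differed by -1.17 ± 0.69 with overlapping groups, or by -0.26 without control array 1. All 8 inward rectifier genes were lower after doxycycline when control array 1 was left out, with a median of -0.67, while the median was 0.60 when control array 2 was left out instead. For 6 of the 8, control array 1 read below control array 2, by a family median of -1.38, as 8 of the 10 heart muscle markers did, and the part of heart muscle RNA in this was not tested.

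Of the tandem-pore potassium channels, which carry background currents, 5 of 14 genes were tested, with a median difference of -0.081. Kcnk1 read -4.74 and -3.64 in the control group against -2.78 and -2.78 in the doxycycline group. It was not well above background on control array 1, and both doxycycline arrays lay above both control arrays at nearly the same level as each other. Its controls were thus measured on 1 of 2 arrays, and the fitted difference, which takes the dim value as it stands, was 1.41 ± 0.49 (adjusted p = 0.599), or 0.86 without control array 1, and it turned to -0.099 with normexp background correction. Kcnk3, an acid-sensitive background channel of atrial and ventricular muscle, read 2.86 and 4.46 in the control group against 3.98 and 4.0 in the doxycycline group. Its doxycycline arrays lay between the control arrays (0.33 ± 0.59). Kcnk6, Kcnk13 and Kcnk4 had overlapping groups and differed by -0.27, -0.25 and -0.081.

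Of the channels opened by internal calcium or sodium, 2 of 12 genes were tested. Kcnn2, a small-conductance calcium-activated channel that is prominent in the atrium, read -1.85 and -0.83 in the control group against -2.35 and -2.35 in the doxycycline group. It was below both control arrays on each doxycycline array, at nearly the same level (-1.01 ± 0.48, adjusted p = 0.779; -1.52 without control array 1). Atrial and conduction markers had a median difference of -0.79 over the 6 of 10 tested (-0.089 without control array 1). Their log2 summed levels were 7.40 and 7.48 in control against 7.32 and 6.49 after doxycycline. Nppa, a bright part of that sum, read 5.92 and 7.33 in control against 7.20 and 5.54 after doxycycline. Myl4, Myl7, Sln and Tbx3 instead read highest on control array 1, and higher on doxycycline array 2 than on control array 2. Gja5 was also highest on control array 1 and read nearly the same on array 2 of each group. The part of atrial and conduction cells in the difference of Kcnn2 was not tested. Kcnt1, a sodium-activated channel, was dim and had overlapping groups (0.43 ± 0.64).

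**Figure D4:**
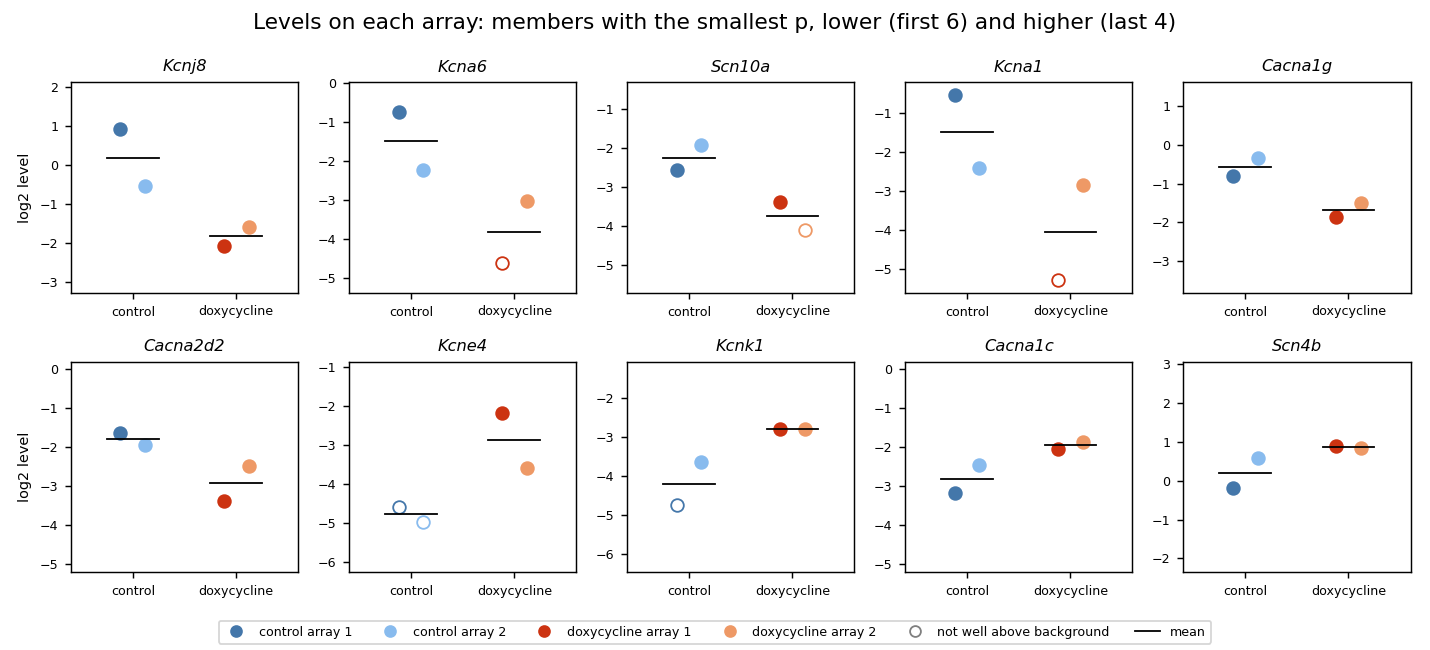
Log2 level on each array of the 6 channel genes with the smallest p among those lower after doxycycline (Kcnj8 to Cacna2d2) and the 4 among those higher (Kcne4 to Scn4b); open circles were not well above background, the black line is the mean of each group, and each panel spans the same number of log2 units. The groups do not overlap in any panel, the doxycycline arrays of Kcna1 and Kcna6 lie far apart, and both control points of Kcne4 are open.

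Promoters are shown for Kcnj8 and Kcne4, the channel genes with the smallest p in each direction. They are also shown for Kcna6 and Kcna5, which lie on either side of Kcna1 and did not read alike. Each window lies mostly before a transcription start and ends shortly after it, from RefSeq on build GRCm38.p6, 5′ to 3′ on the strand of the gene. Capitals mark matches, on either strand, to a short motif of each introduced factor: CACGTG for Myc, ATGCAAAT for Pou5f1, GGGNGTGG for Klf4 and CATTGTT for Sox2. The promoter of Kcnj8 is at chr6:142571565-142571864 on the minus strand, that of Kcne4 at chr1:78816661-78816960 on the plus strand, that of Kcna6 at chr6:126740625-126740924 on the minus strand and that of Kcna5 at chr6:126535506-126535805 on the minus strand.
Kcnj8: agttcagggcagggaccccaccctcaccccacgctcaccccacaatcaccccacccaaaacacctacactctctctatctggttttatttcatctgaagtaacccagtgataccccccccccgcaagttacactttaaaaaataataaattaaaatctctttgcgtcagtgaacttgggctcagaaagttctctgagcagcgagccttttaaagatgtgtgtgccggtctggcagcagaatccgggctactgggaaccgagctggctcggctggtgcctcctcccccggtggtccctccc
Kcne4: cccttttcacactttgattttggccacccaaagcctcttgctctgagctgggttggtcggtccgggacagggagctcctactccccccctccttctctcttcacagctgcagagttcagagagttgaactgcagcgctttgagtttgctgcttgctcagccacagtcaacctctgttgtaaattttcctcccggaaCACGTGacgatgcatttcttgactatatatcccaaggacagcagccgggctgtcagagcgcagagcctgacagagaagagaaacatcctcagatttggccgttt
Kcna6: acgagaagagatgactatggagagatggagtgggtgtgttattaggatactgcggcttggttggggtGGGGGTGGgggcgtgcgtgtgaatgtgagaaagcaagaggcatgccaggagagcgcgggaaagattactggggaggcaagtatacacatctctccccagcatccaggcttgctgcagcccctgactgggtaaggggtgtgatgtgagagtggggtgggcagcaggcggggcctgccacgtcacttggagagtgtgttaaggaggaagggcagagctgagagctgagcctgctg
Kcna5: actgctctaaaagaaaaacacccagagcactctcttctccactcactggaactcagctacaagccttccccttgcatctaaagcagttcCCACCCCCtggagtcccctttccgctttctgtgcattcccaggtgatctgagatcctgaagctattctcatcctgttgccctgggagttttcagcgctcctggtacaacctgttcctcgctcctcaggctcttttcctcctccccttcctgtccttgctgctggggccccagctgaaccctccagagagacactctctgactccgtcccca
The Kcne4 window holds 1 match to the Myc motif, the Kcna6 and Kcna5 windows hold 1 match each to the Klf4 motif, and the Kcnj8 window holds none of the 4. Of 50 windows found for 39 of the 59 channel genes, 3 held the Myc motif (6%, against 7.15% of all 32851 windows), 15 the Klf4 motif (30%, against 17.6%), and none the Pou5f1 or the Sox2 motif (against 1.74% and 3.78%). The 3 genes with the Myc motif were Kcne4, Kcnh4 and Kcnj2. The differences of Kcnh4 and Kcnj2 were -0.57 and 0.38, and Kcne4 has only the bound given above. These matches are a description of the letters and not of binding. No printed window holds more than 1 match, so no matches overlap there.

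Sodium pore genes lay close to 0 apart from Scn10a. Of 9 genes 5 were tested and all 5 means were lower after doxycycline, by a median of -0.23, although 2 of the 5 were higher without control array 1. Scn10a encodes a sodium channel best known from sensory neurons. Scn10a read -2.56 and -1.92 in the control group against -3.39 and -4.10 in the doxycycline group, and it was not well above background on doxycycline array 2. Both doxycycline arrays lay below both control arrays (-1.50 ± 0.47, 2.84-fold lower, adjusted p = 0.516; -1.82 without control array 1). Its processed signals before scaling were 19.1 and 45.1 in the control group against 23.7 and 11.3 in the doxycycline group, which do overlap between groups. Scn4a, the sodium channel of skeletal muscle, had the smallest difference of any channel gene, at -1.01 and -0.87 in the control group against -0.93 and -0.96 in the doxycycline group, a difference of -0.0035 ± 0.39. Scn8a, better known from neurons, differed by -0.23 ± 0.45. Scn3a, which is mainly neuronal, differed by -0.47 ± 0.56 on its brighter probe, while a dimmer probe was well above background on the doxycycline arrays alone.

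Of 3 sodium accessory genes 2 were tested. Scn4b, a cell-adhesion-type subunit of cardiac sodium channels, read -0.20 and 0.58 in the control group against 0.89 and 0.83 in the doxycycline group (0.67 ± 0.44, adjusted p = 0.881), higher on both doxycycline arrays, and stood at 0.28 without control array 1.

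The calcium pore genes lay on both sides of 0. Of 10 genes 6 were tested, with a median difference of -0.55 (-0.38 without control array 1). Both doxycycline arrays read below both control arrays for 4 of the 6 (20.8% of all genes tested) and above both for 1 (14.5%). The control arrays differed more than the groups for 1 of the 6 (68.8% of all genes). Cacna1c, the pore of the main L-type channel of heart muscle, read -3.17 and -2.47 in the control group against -2.06 and -1.86 in the doxycycline group. Both doxycycline arrays lay above both control arrays (0.86 ± 0.44, adjusted p = 0.804; 0.51 without control array 1), and the difference was 0.11 with normexp background correction. Cacna1s, the L-type pore of skeletal muscle, read 0.64 and 2.08 in the control group against 1.85 and 2.37 in the doxycycline group (0.75 ± 0.57), and a second probe differed by 1.03, but the value was 0.027 without control array 1.

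Cacna1g and Cacna1h encode T-type channels, which open at low voltage and are found in the conduction system and the fetal heart. Cacna1g read -0.80 and -0.35 in the control group against -1.86 and -1.51 in the doxycycline group. Both doxycycline arrays lay below both control arrays (-1.11 ± 0.42, 2.16-fold lower, adjusted p = 0.658). A second, dimmer probe was well above background on array 2 of each group alone, where it read -1.68 in control and -3.02 after doxycycline. Without control array 1 the difference was -1.33. The processed signals before scaling were 64.4 and 134 in the control group against 68.4 and 67.5 in the doxycycline group, where control array 2 alone stood apart. Cacna1h read -0.64 and -0.97 in the control group against -1.37 and -1.07 in the doxycycline group (-0.42 ± 0.41). It was lower on both doxycycline arrays only after scaling. Before scaling both doxycycline signals were higher, at 71.9 and 87.4 in the control group against 95.8 and 91.7 in the doxycycline group. A further T-type gene, Cacna1i, differed by -0.69 ± 0.43, and Cacna1a, a channel of nerve endings, by -0.83 ± 0.41, both lower on both doxycycline arrays.

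Of the calcium accessory genes 8 of 16 were tested, with a median difference of -0.29. Cacna2d2, an extracellular subunit that is prominent in the brain, read -1.65 and -1.93 in the control group against -3.38 and -2.48 in the doxycycline group, lower on both doxycycline arrays before and after scaling (-1.14 ± 0.47, 2.20-fold lower, adjusted p = 0.692; -1.0 without control array 1). Its relative Cacna2d1, the form that predominates in heart muscle, read 1.67 and 2.97 in the control group against 2.55 and 2.45 in the doxycycline group, with both doxycycline arrays between the control arrays (0.19 ± 0.53). Cacnb2, the main cytoplasmic beta subunit of the heart, read -1.94 and -0.43 in the control group against -0.90 and -0.47 in the doxycycline group. The difference was 0.50 ± 0.58, whereas a dimmer probe differed by -0.32. Cacng6, a membrane-spanning gamma subunit of muscle, was higher on both doxycycline arrays (0.40 ± 0.39), and this turned to -0.19 with normexp background correction. Cacnb1, Cacnb3, Cacnb4 and Cacng7 had overlapping groups and differed by -0.083, -1.04, -0.94 and -0.51. Without control array 1 these differences were -0.42, -0.37, -0.022 and 0.18. Cacnb4 was well above background on only 1 array of each group.

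Of the pacemaker channel genes, Hcn2 differed little on its brighter probe. Hcn2, the HCN subunit best known from working ventricle, read 5.44 and 5.55 in the control group against 5.31 and 5.40 in the doxycycline group, from signals of 4862 and 8024 in the control group against 9863 and 8128 in the doxycycline group. The 4 levels spanned 0.24, and the difference was -0.14 ± 0.39 (adjusted p = 0.98). A second, dimmer Hcn2 probe read 0.80 and 1.12 in the control group against 0.41 and 0.21 in the doxycycline group, and differed by -0.65. On each probe both doxycycline arrays lay below both control arrays after scaling. Hcn4, the main subunit of the sinus node, had no probe well above background on the 4 arrays.

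The remaining 80 channel genes were not tested, 63 because no probe was well above background on any array and 17 because this was so on 1 array alone. Just inside the threshold, Kcne4 and Cacnb4 were well above background on 2 arrays, while just outside it Kcne1 had signals of 12.3, 8.84, 9.15 and 7.95 on the 4 arrays in the same order. Besides Hcn4 and Kcne1, genes with known cardiac roles that could not be tested were Kcnj14, Kcnk2, Scn2b and Cacna1d. No probe was matched to Scn3b, another sodium accessory gene. The long noncoding Kcnq1ot1, which overlaps Kcnq1, was well above background on doxycycline array 1 alone. Of the 59 genes tested, 45 were well above background on all 4 arrays.

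Genes that act with these channels but lie outside the rule gave a comparison list of 49, of which 44 were tested. None passed an adjusted p of 0.05, and 2 had an unadjusted p under 0.05, both lower (Rem1 and Abcc9), where 7.06% of all genes had one. The median difference was 0.15 (-0.19 without control array 1), with 25 means higher and 19 lower. Both doxycycline arrays read below both control arrays for 7 (20.8% of all genes) and above both for 8 (14.5%). Rem1, a small GTPase that inhibits L-type channels, read 0.98 and -0.26 in the control group against -2.30 and -0.98 in the doxycycline group (-2.0 ± 0.63, adjusted p = 0.523, or -1.37 without control array 1). Its relatives Gem and Rrad, which do the same, differed by 1.11 ± 0.61 and 0.85 ± 0.85, with overlapping groups for both. Without control array 1 these differences were 1.72 and 0.62. Rrad read 2.60 and 3.05 in the control group against 5.03 and 2.30 in the doxycycline group. Its higher mean thus came from doxycycline array 1 alone. Gja5, a gap junction protein of atrium and conduction system, differed by -1.46 ± 0.68, whereas Gja1, the gap junction protein of ventricular muscle, differed by -0.028 ± 0.66. Without control array 1 Gja5 stood at -0.68 and Gja1 at -0.94, so this contrast did not hold. Popdc3, a cyclic AMP-binding membrane protein, was the highest, at -1.82 and -0.094 in the control group against 0.77 and 0.17 in the doxycycline group (1.43 ± 0.63, adjusted p = 0.755, or 0.56 without control array 1). The sodium pump subunits Atp1b1 and Atp1b2 differed by 0.52 and -1.07, or by -0.11 and -0.53 without control array 1.

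For most channel genes the control arrays differed from each other more than the groups did. This was so for 40 of the 59 (67.8%, against 68.8% of all genes tested), and the median absolute difference between control arrays was 1.09, against 0.51 between groups. Leaving out control array 1 turned the sign of the difference for 19 of the 59. Control array 1 enters both of these differences, so they are not independent. Channel genes were also dim, with a median level of -1.65 against 0.12 over all genes tested. Over the 25 with a mean level under -2 the median difference was -0.47 (all such genes, -0.27), over the 16 from -2 to under 0 it was -0.31 (-0.11), and over the 18 at 0 or more it was -0.16 (0.016). In the limma fit an unadjusted p under 0.05 was found for 6 of the 25, 2 of the 16 and 0 of the 18. Over all genes it was found for 339 of 2716, 238 of 3341 and 309 of 6485. Means were lower for 64%, 87.5% and 61.1% of the channel genes in these bins, against 65.9%, 58.3% and 48.4% of all genes. The 75th percentile used for scaling was 0.66 log2 units higher in the doxycycline group. Without any scaling, both doxycycline signals were below both control signals for 5 channel genes (Kcna1, Kcna6, Kcne3, Kcnj8 and Cacna2d2; 8.47%, against 4.22% of all genes tested), all of them among the 16 after scaling. Both were above for 19 (32.2%, against 41.7%), among which were all 5 after scaling. The part of brightness in these differences was not tested.

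**Figure D5:**
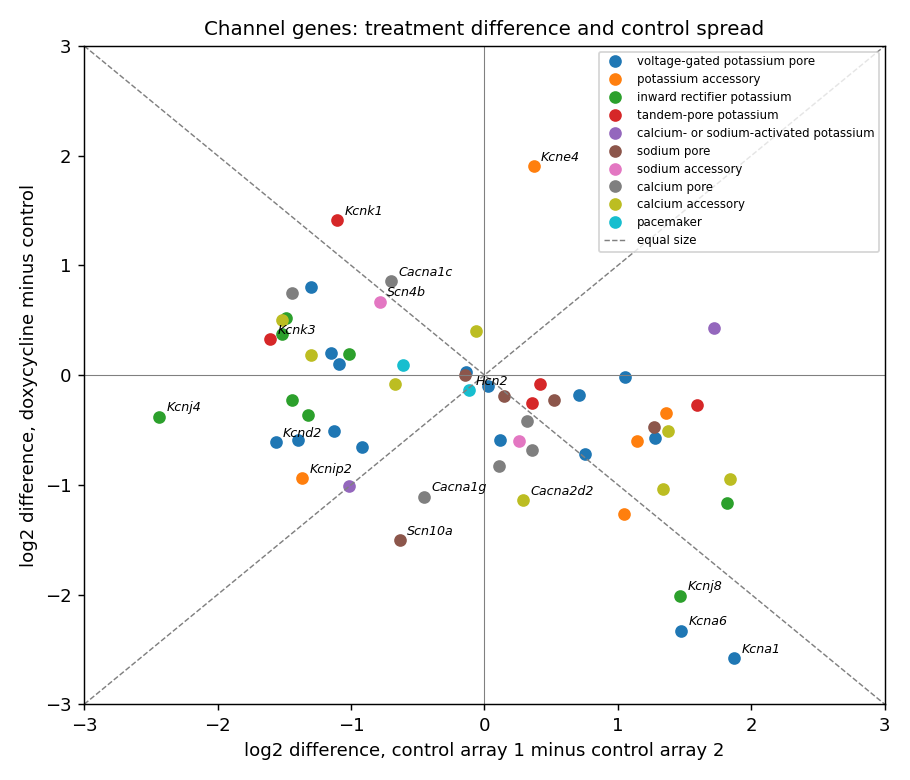
Log2 difference between groups (vertical axis) against the log2 difference between control arrays 1 and 2 (horizontal axis), with 1 point per channel gene coloured by family and dashed lines where both differences are of equal size. Points between the dashed lines to the left and right, 40 of the 59, had control arrays that differed more than the groups, while Kcne4, Scn10a, Cacna1g, Kcna1, Kcna6 and Kcnj8 lie outside them.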

How the data were processed

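There were 4 Agilent 1-colour arrays, 2 per group, assigned by sample title. Feature Extraction 10.7.1.1 gave the spot intensity, per the file headers. The deposited processed intensity is linear, background-subtracted and detrended within an array, with no normalization across arrays. The flags deposited with it mark saturated, outlying and well-above-background spots, and 0 non-control spots were saturated. The design build named there is mm9. The arrays lay on 1 slide, controls first, so treatment and position on it cannot be told apart.

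Of 39429 probes, 27508 were named by matching accessions, without versions, to a RefSeq table of assembly GRCm38.p6, used for names, gene order and promoter sequences. From the deposited intensity log2 values were taken, less each array's 75th percentile over non-control spots. Outlying spots were dropped before averaging per probe (35 probes with every spot of an array flagged were dropped). A probe passed if well above background (at least 0.5 of its spots) on at least 2 arrays, and the brightest probe stood for a gene. Array signal and the number of arrays limit the precision. Groups were compared two-sided with limma 3.58.1 in R 4.3.3 (lmFit, eBayes), with Benjamini-Hochberg adjustment over all 12542 genes tested and a threshold of 0.05. Only this fit, and not the earlier steps, was tested on simulated data. The simulated spread was the same for every gene and below the average residual spread of these arrays, so that test does not cover their noise. A permutation test of 2 against 2 cannot give a p below 0.333. Figures were drawn with matplotlib 3.10.9.

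The members, the lists of markers and partners and the genes to be named were chosen with earlier results of these data known. Named were 37 genes with cardiac roles (30 tested), the 8 members with the smallest p in each direction, members below background throughout 1 group, and members whose probes differ in sign; other members are named to account for them. A few genes are not reported here by name. Alternatives were normexp background correction (offset 50, on the median spot signal, the files having no mean), quantile normalization, median scaling, other filters, averaging over the probes of each gene, a trend in the variance, the replicate number as a block and each array left out. The split by brightness, the count without scaling and the marker sum without Acta2 were added after seeing the data. Columns of other series numbered 0.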

Additional observations from a re-analysis of the deposited data

How the results depend on the processing

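The count of channel genes at an adjusted p under 0.05 was 0 with all arrays and with every alternative scaling, background correction, filter, probe rule and variance trend tried. It was 8 at an unadjusted p under 0.05 and ranged from 0 to 2 when 1 array was left out (Kcna1 and Kcna6, without doxycycline array 2). With the replicate number as a block 3 channel genes passed, Kcna1 (adjusted p = 0.0029), Kcna6 (adjusted p = 0.010) and Kcnj8 (adjusted p = 0.044), and 295 of all genes did. That block leaves 1 residual degree of freedom and an unlimited prior. The numbers are not stated to mark a shared animal, and the deviations of same-numbered arrays were not positively related (r = -0.085 over all genes, which are not independent). Over all genes the count was 0, against 886 at an unadjusted p under 0.05, 128 with median scaling and 0 to 171 when 1 array was left out (32 without doxycycline array 1 and 171 without doxycycline array 2). The median difference over the channel genes ran from -0.42 to -0.14 with 1 array left out and was 0.073 with median scaling, where that over all genes was 0.29.

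Of all 59 channel genes tested, 28 turned sign when 1 array was left out. Among those covered by the naming rule and reported here, these were 15: Cacna2d1 from -0.46 to 0.84, Cacnb2 from -0.26 to 1.26, Kcna5 from -0.55 to 0.51, Kcnd2 from -1.39 to 0.17, Kcnd3 from -0.37 to 0.78, Kcnj11 from -0.22 to 1.27, Kcnj12 from -0.95 to 0.49, Kcnj2 from -0.38 to 1.14, Kcnj3 from -0.31 to 0.70, Kcnj5 from -1.03 to 0.30, Kcnk3 from -0.48 to 1.13, Kcnq1 from -1.07 to 0.060, Kcnv2 from -0.70 to 0.90, Scn3a from -1.11 to 0.16 and Scn4a from -0.078 to 0.071. With normexp background correction Cacng6 (-0.19), Hcn2 (0.017), Kcna5 (0.019), Kcne4 (-0.086), Kcnj2 (-0.32), Kcnj3 (-0.21), Kcnk1 (-0.099) and Kcnv2 (-0.15) turned sign. With median scaling Hcn2 (0.21), Kcna5 (0.33), Kcnj12 (0.12) and Scn4a (0.34) did, with the mean of a gene's probes Kcna5 (0.38) and Scn3a (0.090), and with quantile normalization Scn4a (0.049). None of these had passed the test, and the cause was not tested. Among named genes and family medians, 478 other values kept their direction and their side of the threshold or moved by less than the spread between replicates, and family medians moved by more in 26 cases. Dim signal limits what can be said of Kcne4, Kcnk1, Kcna1, Kcna6, Kcne3 and Scn10a.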
